A study of Mus musculus with 2084 samples.

Results

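Zic1, Zic2, Emx2, Gsx2, Pax6, Lhx2, Six3, Six3os1 and Otx1 are 9 of the 35606 gene identifiers in a count table of single mouse brain cells. The set was listed by gene name, and it was chosen with earlier results of these data known. It comprises 6 homeobox genes that pattern the embryonic forebrain (Emx2, Gsx2, Pax6, Lhx2, Six3 and Otx1), the zinc finger genes Zic1 and Zic2, and Six3os1, the long non-coding RNA read from the strand opposite Six3.

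The study profiled astrocytes, neural stem cells (NSCs) and their progeny by scNMT-seq, which reads RNA, DNA methylation and chromatin accessibility of the same cell, and the RNA counts are described here. Cells were sorted from the ventricular-subventricular zone (vSVZ, the stem cell niche lining the lateral ventricle), the striatum beside it, the cortex and the olfactory bulb with the late rostral migratory stream. The lineage labels run from quiescent stem cells (qNSC1, then qNSC2) to active stem cells (aNSC), transit-amplifying progenitors (TAP) and neuroblasts. Replicates are the letters pA to pM, each of 1 or more mice, individual or pooled.

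TiCY mice received tamoxifen at 2 months of age, which activates Cre in Tlx-expressing vSVZ NSCs and marks these cells and their progeny with enhanced YFP. Bilateral occlusion of the carotid arteries (ischemia) followed 2 weeks later. The ischemia arms were TiCY mice lacking the interferon receptors (TiCY-IFN(A/G)R KO) at 2 d (pJ; 114 striatal and 228 vSVZ cells), TiCY mice at 2 d (pI; 122 and 176 cells) and TiCY mice at 21 d (pH; 79 and 155 cells). Naive arms without ischemia were IFN(A/G)R KO mice (pJ; 35 striatal and 134 vSVZ cells), TiCY mice (pM; 131 and 202 cells), wild-type mice carrying a TCF-Lef reporter (pL; 32 cortical and 33 striatal cells) and wild-type mice (pA to pE, vSVZ, with 12 striatal cells of pE; pF, 55 bulb cells). Wild-type mice received neither tamoxifen nor ischemia, and the ages of the wild-type, knockout and reporter mice are not given. Every KO cell carried the letter pJ, so genotype and replicate cannot be told apart.

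Patterning transcription factors divide the embryonic telencephalon into territories. Emx2, Lhx2 and Pax6 act in the dorsal part, the pallium, which forms the cortex, while Gsx2 acts in the lateral ganglionic eminence, which forms much of the striatum and many olfactory bulb interneurons. Zic genes mark the septum and the dorsal midline, Six3 marks the rostral forebrain and Otx1 acts in the forebrain and its cortical layers. Adult vSVZ stem cells keep part of this positional identity, and cells from different walls of the ventricle form different bulb interneurons.

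Six3 and Six3os1 lie head to head on chromosome 17 (GRCm38; Six3 at 85613608 to 85629302 on the plus strand, Six3os1, a processed transcript, at 85600651 to 85618398 on the minus strand). The 2 RefSeq start sites (GRCm38.p6) are 2438 bp apart. The 250 bases before each start are shown because the 2 genes had the most alike levels among the 9 (Pearson r = 0.87, described below). They still went apart in some groups, such as naive qNSC2 cells of pJ against those of pM. Capitals mark the letters CCAAT, or ATTGG where they lie on the other strand. This motif was picked after the sequence had been read.
Six3, chr17:85620584-85620833, plus strand: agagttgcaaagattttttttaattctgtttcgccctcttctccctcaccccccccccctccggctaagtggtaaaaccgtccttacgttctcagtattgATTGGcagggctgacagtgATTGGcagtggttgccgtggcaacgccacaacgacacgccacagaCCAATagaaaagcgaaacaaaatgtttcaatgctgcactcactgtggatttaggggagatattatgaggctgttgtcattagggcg
Six3os1, chr17:85618397-85618646, minus strand: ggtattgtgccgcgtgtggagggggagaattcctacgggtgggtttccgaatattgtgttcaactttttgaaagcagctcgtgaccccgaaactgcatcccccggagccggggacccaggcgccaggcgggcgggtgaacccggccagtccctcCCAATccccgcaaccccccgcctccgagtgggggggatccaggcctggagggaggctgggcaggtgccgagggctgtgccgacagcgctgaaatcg
Six3 held 3 such matches in a window of 48.8% GC, and Six3os1 held 1 in a window of 66.0% GC. Of 32851 promoter windows of this length, 33.8% held CCAAT on either strand and the median GC was 52.4%. Neither TAATTA nor TAATCC, core letters of homeodomain sites, was found on either strand in the 9 windows available for 7 of the genes, against 4.84% and 6.25% of all windows.

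Of 2084 labelled cells, 1981 had counts, between 3771 and 1842234 a cell (median 160621). For each replicate, the counts of cells sharing a type or sort were added up and scaled to CPM (reads of a gene per 1e6 counted reads). In such sums, fewer expressing cells and less RNA per cell cannot be told apart, so shares of cells at a fixed depth of 50000 counts are given as well. The values are counts of reads and not of molecules, so exact 95% intervals cover counting error only, and p-values measure the spread between letters, which may be partly technical. A gene was called at an adjusted p below 0.05 with edgeR's quasi-likelihood test over all genes. Cell type labels may rest on the same transcriptomes, so p-values between types are a description; sorts do not rest on them. Six3os1 had 0 counts in all 540 cells of pA to pF and 9368 counts in the 1441 cells of the other letters, so it is described in pH to pM alone. Zic1, Emx2, Pax6, Lhx2, Six3 and Six3os1 overlap genes on the other strand, and whether counting used strand is not stated. Six3 and Six3os1 overlap each other, so how reads in their shared stretch were assigned is not known. Levels are compared within a gene and never between genes.

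Cortical and striatal astrocytes of the reporter mice (pL) carried different factors. Zic2, a zinc finger factor of the dorsal midline, had 178 CPM in cortical cells (exact 95% interval 165.9 to 189.8), against 7.06 CPM in striatal cells, and was detected in 75.0% of cortical and 9.09% of striatal cells at fixed depth. Zic1 had 16.9 CPM in cortical cells and 0 in striatal cells. Six3 and Six3os1 showed the opposite order: both were at 0 in all 32 cortical cells, against 19.9 and 60.05 CPM in striatal cells. The naive striatal astrocytes of the KO mice (pJ) and TiCY mice (pM) were then added. The cortical sum lay outside the striatal range for Zic1, Zic2, Six3 and Six3os1, and also for Pax6, Lhx2 and Emx2. The share of all genes outside that range was not counted, so this separation cannot be set against it.

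Over these naive sums, Zic2 had 178 CPM in the cortical sum, against 0.457, 7.06 and 7.58 CPM in the striatal sums of pJ, pL and pM. The fitted difference was 5.15 ± 2.05 (log2, SE; edgeR adjusted p = 1) for Zic2 and 5.97 ± 2.48 for Zic1. Within pL, Six3 was at least 32.2-fold lower and Six3os1 at least 97.2-fold lower in cortical cells; here and in what follows, such a bound takes 3 counts in the library at 0 as the floor. The pallial factors were also higher in the cortical sum: Pax6 had 249 CPM, against 51.1, 93.0 and 56.8 CPM in the striatal sums, Lhx2 312 CPM against 55.3, 201 and 70.7, and Emx2 154 CPM against 61.2, 35.0 and 72.7. The differences were 1.91 ± 0.83 for Pax6, 1.53 ± 0.85 for Lhx2 and 1.48 ± 1.15 for Emx2 (log2, SE). Wild-type striatal astrocytes of pE, which are not in this fit, had 206 CPM of Pax6, nearer to the cortical sum than to the other striatal sums. They had 63.6 CPM of Lhx2 and 48.9 CPM of Emx2. Otx1 was within the striatal range (24.5 CPM, against 13.5, 25.1 and 4.23).

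The cortical group is 1 sum, which the fit assumes to vary like the other groups. EdgeR called 0% of 20182 genes and 0 of the 9, while 326 genes and 5 of the 9 (Zic1, Zic2, Pax6, Six3 and Six3os1) had an unadjusted p below 0.05. DESeq2 called 9 genes and none of the 9. With that assumption, edgeR called Zic1, Zic2 and Six3os1 without pJ and also without pM, and Six3 without pJ only. The share of all genes called in these reduced fits is not given here, so these calls do not measure how the 9 stand out. The sorted cortical cells carried astrocyte markers at 27440 CPM in sum, with 0 of 6 markers at 0, against 26190, 26380 and 30550 CPM in the striatal sums of pJ, pL and pM, and the cortical excitatory neuron list summed to 2.88 CPM.

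**Figure D1:**
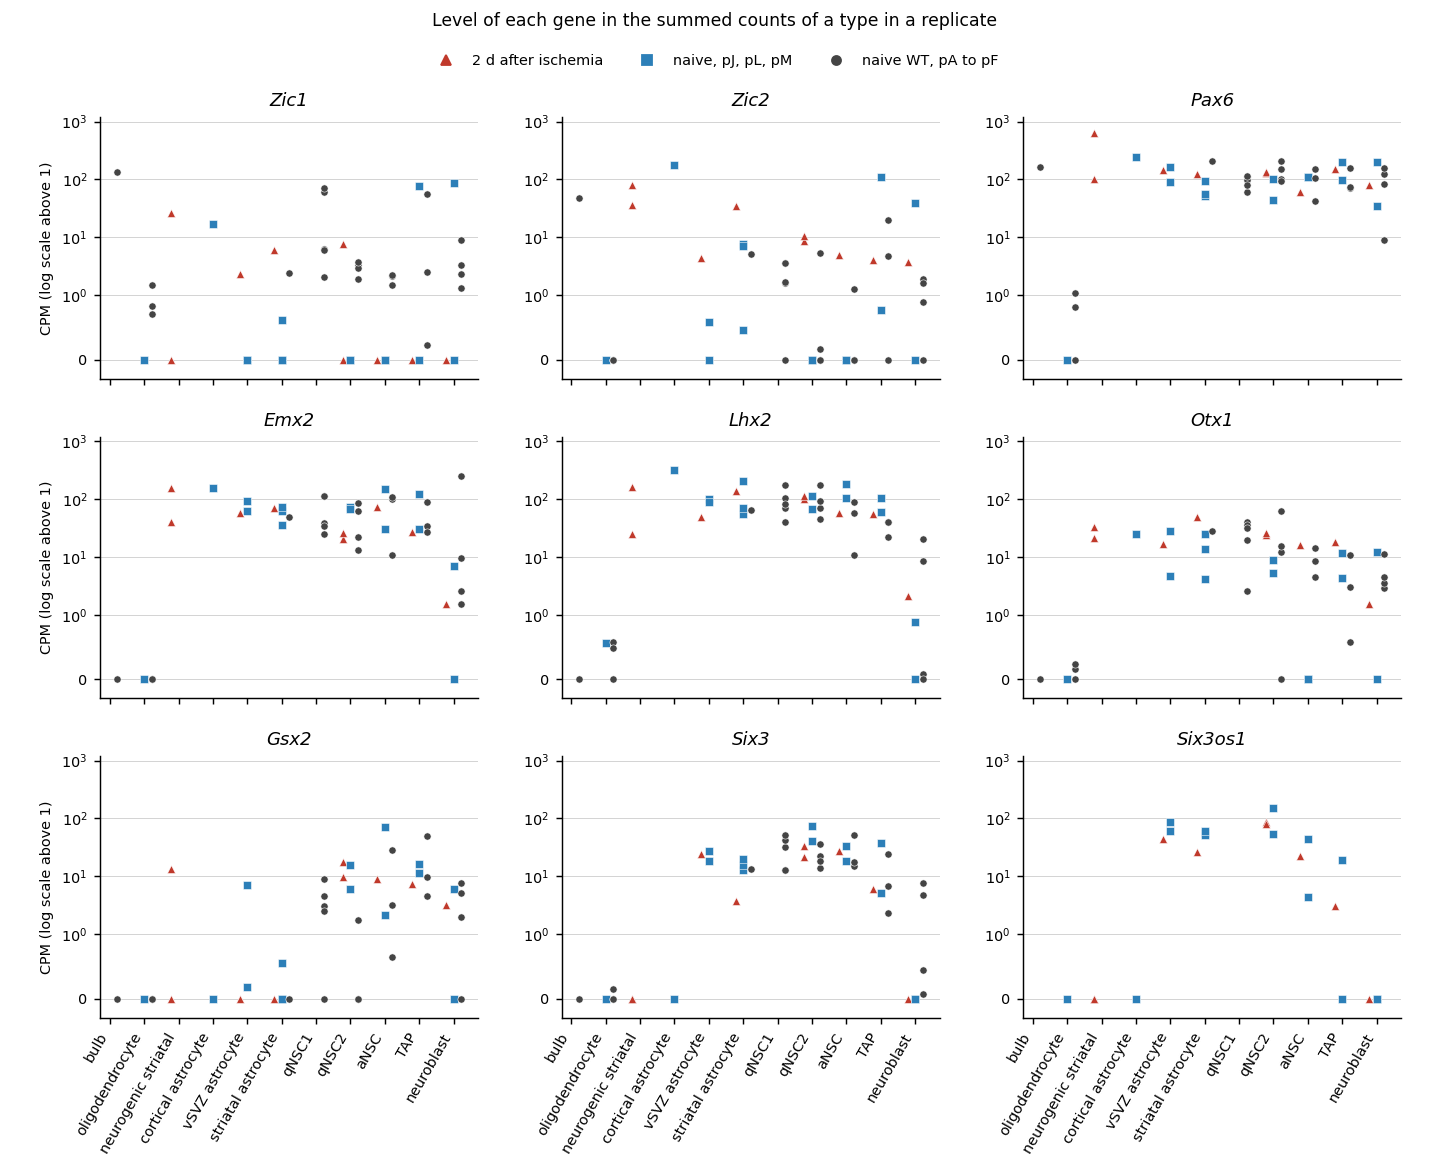
CPM of the 9 genes in each sum of cells sharing a type and a replicate, with groups along the horizontal axis and 1 point per sum. Cortical cells stand out for Zic2 (178 CPM) and have no Six3 or Six3os1, and bulb cells combine Zic1 (135 CPM), Zic2 (47.1 CPM) and Pax6 (166 CPM) with 0 for the rest.

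Olfactory bulb and late migratory stream cells of wild-type mice (pF, 55 cells) had Zic1, Zic2 and Pax6 and none of the other 5 genes counted in these letters. Zic1 had 135 CPM (interval 127.6 to 142.7) and was detected in 54.2% of 48 cells at fixed depth. Zic2 had 47.1 CPM (29.2% of cells), and Pax6, which is required for dopaminergic periglomerular neurons, had 166 CPM (47.9% of cells). Emx2, Lhx2, Otx1, Gsx2 and Six3 had no count in any of the 55 cells, where 3 counts would be 0.325 CPM.

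In vSVZ neuroblasts of pA, pB, pC and pD, Zic1 had 2.30, 9.05, 1.35 and 3.33 CPM and Zic2 had 1.92, 1.65, 0.901 and 0 CPM, all below the bulb sum. Bulb cells minus neuroblasts gave 5.01 ± 1.56 for Zic1 (log2, SE; unadjusted p = 0.0039, edgeR adjusted p = 0.45), 5.28 ± 2.31 for Zic2 (adjusted p = 0.82) and 0.82 ± 1.05 for Pax6 (adjusted p = 0.95). Emx2 and Otx1 were above the bulb limit of 0.325 CPM in all 4 neuroblast sums, the lowest being 1.54 CPM for Emx2 and 2.92 CPM for Otx1. Gsx2 and Six3 in pA and Lhx2 in pA and pB were below that limit in neuroblasts as well. Of all genes 0.0281% were called, and 0 of the 8 with counts in these letters. The bulb group is 1 sum, of pF, and no neuroblast sum shares that letter. The fit assumes that this sum varies like the other groups, so the SE and p-values above rest on that assumption. Letter and cell type cannot be told apart here. Other Zic genes were present in bulb cells as well, with Zic4 at 84.7 and Zic5 at 35.3 CPM. The bulb sum carried all 6 neuroblast markers (3742 CPM in sum), and its mature neuron list summed to 824 CPM.

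In the wild-type vSVZ, stem cells carried the pallial factors and Six3, and myelinating oligodendrocytes carried almost none of the 8 genes counted in these letters. In qNSC1 cells (5 replicates) Pax6 averaged 92.8 ± 22.3 CPM, Lhx2, the LIM homeodomain factor, 94.3 ± 51.7, Emx2 64.3 ± 44.0, Six3 30.7 ± 17.7, Otx1 26.0 ± 15.2 and Gsx2 3.88 ± 3.39 (SD, n = 5). Zic1 averaged 29.3 ± 33.8 CPM, but 1 cell held 53.4% of its counts in pA and 79.3% in pB.

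Oligodendrocytes of pA, pB and pC had 0.821, 1.08 and 0 CPM of Pax6, 0, 0.575 and 0.477 CPM of Lhx2, 0, 0.144 and 0 CPM of Six3, and none of Emx2, Zic2 or Gsx2. No oligodendrocyte sum overlapped the qNSC1 sums for Pax6, Lhx2, Emx2, Six3 or Otx1. All 5 fell in oligodendrocytes relative to qNSC1 cells: Pax6 by -6.75 ± 1.03 (log2, SE; edgeR adjusted p = 0.00013), Lhx2 by -7.66 ± 1.76 (adjusted p = 0.0056), Six3 by -8.20 ± 1.71 (adjusted p = 0.0026), Otx1 by -7.62 ± 1.90 (adjusted p = 0.011), and Emx2 to 0 (adjusted p = 0.0023), which is at least 50.2-fold, 358-fold and 158-fold lower within pA, pB and pC. Zic1, Gsx2 and Zic2 had adjusted p = 0.057, 0.064 and 0.10. The 5 of 8 genes stand against 9.01% of all genes called. With the replicate as a block 6 of the 8 were called, Zic1 being added, and DESeq2 called all 8. The shares of all genes called under these 2 alternatives are not given here. Without pC, 3 of the 8 were called, and Lhx2 and Otx1 were not (edgeR adjusted p = 0.0915 and 0.0815). Without pA, Otx1 had an edgeR adjusted p = 0.0801.

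The same 5 genes were called between the sorts, which the cell names give. In cells of the oligodendrocyte sort (OLIGO) of pA, pB and pC, Pax6 had 0.752, 1.18 and 0 CPM, against 151, 65.7 and 77.5 CPM in NSC-sorted cells. All 5 fell in OLIGO cells: Pax6 by -6.82 ± 0.94 (log2, SE; edgeR adjusted p = 0.00085), Lhx2 by -9.65 ± 2.28 (adjusted p = 0.023), Six3 by -7.75 ± 1.91 (adjusted p = 0.029) and Otx1 by -7.66 ± 1.51 (adjusted p = 0.0082), and Emx2 to 0 (adjusted p = 0.0049), at least 35.0-fold, 148-fold and 149-fold lower within pA, pB and pC. The 5 of 8 stand against 6.1% of all genes. These calls rest on each replicate: 0 were called without pA, 2 without pB and 3 without pC. The NSC sorts of pA and pB also held oligodendrocyte markers, at 9865 and 41350 CPM in sum, against 187 CPM in pC, and their part in the result was not tested.

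Between neighbouring stem cell stages none of the 8 passed the test, and the genes differed in where their levels were high. From qNSC1 to qNSC2, 0.101% of genes and 0 of 8 were called (1 of 8 and 1757 genes at an unadjusted p below 0.05; DESeq2 called 320 genes and 0 of 8). Zic1 in qNSC2 cells had 3.29, 2.93, 3.72 and 1.89 CPM in pA, pB, pD and pE, lower than the qNSC1 sum of the same letter in 4 of 4 letters. The difference was -3.43 ± 1.24 (log2, SE; edgeR unadjusted p = 0.011, adjusted p = 0.35), with the high qNSC1 sums of pA and pB resting mainly on 1 cell each.

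Gsx2, a factor of the lateral ganglionic eminence, had no common level in quiescent cells. In wild-type mice it had 28.4, 3.18 and 0.640 CPM in aNSC sums of pC, pD and pE, against 0, 0, 1.74 and 0 CPM in qNSC2 sums of pA, pB, pD and pE. Other quiescent sums were higher, with 9.16 CPM in qNSC1 cells of pA (all in 1 cell), 15.4 and 6.13 CPM in naive qNSC2 cells of pJ and pM, and 17.6 and 9.66 CPM in qNSC2 cells of pI and pJ at 2 d. In wild-type mice aNSC minus qNSC2 gave 4.19 ± 1.95 (log2, SE; edgeR unadjusted p = 0.043, adjusted p = 0.33). Of 8 genes, 0 were called from qNSC2 to aNSC by edgeR and by DESeq2, where edgeR called 0.129% of all genes. Gsx2 was the 1 of the 8 at an unadjusted edgeR p below 0.05, as were 2568 of 17812 genes. TAP sums had 50.7, 9.83 and 4.58 CPM of Gsx2 in pC, pD and pE, each above the aNSC sum of its letter, and neuroblasts of pA to pD had 0, 5.07, 2.03 and 7.77 CPM. In the TAP sum of pC, 79.3% of these counts lay in 1 cell.

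From aNSC to TAP edgeR called 0% of genes and 0 of 8 (1081 genes and 1 of the 8, Zic1, at an unadjusted p below 0.05; DESeq2 called 177 genes and 0 of 8). Zic1 had 55.9, 2.55 and 0.229 CPM in TAP sums of pC, pD and pE, against 1.49, 2.17 and 2.24 CPM in aNSC sums, and 1 TAP cell held 95.8% of the counts of pC. From TAP to neuroblast edgeR called 0.073% of genes and 0 of 8, with 0 of 8 at an unadjusted p below 0.05 and 0 of 8 by DESeq2. Six3 had 2.33, 24.8 and 6.87 CPM in TAP sums of pC, pD and pE and 0.0768, 4.68, 0.451 and 7.77 CPM in neuroblasts of pA to pD. Emx2 had 1.54, 2.60 and 9.46 CPM in neuroblasts of pA, pB and pC but 248.5 CPM in the 7 cells labelled neuroblast in pD. Those 7 cells had 1856 CPM of neuroblast markers, against 6914 to 8217 CPM in the other letters. Pax6 was present in neuroblasts of pA, pB and pC, at 123, 84.7 and 161 CPM, and had 8.88 CPM in pD.

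The neuroblast sort (NB) gives a comparison that does not rest on cell type labels. Lhx2 had 0.0793, 0 and 11.4 CPM in NB cells of pA, pB and pC, against 83.0, 58.4 and 151 CPM in NSC-sorted cells. Emx2 had 1.59, 1.15 and 12.7 CPM, against 19.8, 21.0 and 106 CPM. Six3 had 0.0793, 5.63 and 0 CPM, against 10.8, 17.2 and 37.6 CPM. Lhx2, Emx2 and Six3 were lower in NB cells in 3 of 3 letters, with no overlap, although 1 cell held 96.9% of the Six3 counts of the NSC sort in pA. Pax6 was in the same range in both sorts, with 124, 61.8 and 162 CPM in NB cells, against 151, 65.7 and 77.5 CPM.

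None of the 8 passed edgeR's test, while 11.8% of all genes did. An unadjusted edgeR p below 0.05 was found for 4 of the 8 and for 3747 of 14348 genes. In log2 with SE, Lhx2 differed by -4.77 ± 1.70 (edgeR adjusted p = 0.091), Emx2 by -3.29 ± 1.19 (0.10) and Otx1 by -3.20 ± 1.15 (0.094). Six3 differed by -3.51 ± 1.5 (edgeR adjusted p = 0.16) and Pax6 by 0.17 ± 0.71 (0.92). With the replicate as a block, edgeR called Emx2 (-3.62, adjusted p = 0.0073) and Lhx2 (-6.76, adjusted p = 0.0158). DESeq2 called Lhx2, Emx2, Otx1 and Six3, with adjusted p = 0.0163, 0.0215, 0.0106 and 0.0455. The count of all genes called with the block is given below, and that of DESeq2 is not given. These calls therefore do not measure how the 8 genes stand out.

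Naive KO and TiCY mice (pJ and pM) gave vSVZ cells in which Six3os1 was counted. Emx2 had 0 and 7.06 CPM in neuroblasts of pJ and pM, against 72.1 and 68.4 CPM in qNSC2 cells. Lhx2 had 0 and 0.882 CPM, against 67.9 and 114 CPM. Six3 and Six3os1 had no count in the 8 and 15 neuroblasts of pJ and pM, against 40.2 and 73.6 CPM of Six3 and 152 and 53.0 CPM of Six3os1 in qNSC2 cells. All 4 genes fell in neuroblasts, without overlap of the groups: Lhx2 by -7.57 ± 1.17 (log2, SE; edgeR adjusted p = 0.00025), Emx2 by -4.33 ± 1.26 (adjusted p = 0.034), Six3 to 0 (adjusted p = 0.0035) and Six3os1 to 0 (adjusted p = 0.0038). Within pJ and pM, Six3 was at least 20.8-fold and 55.6-fold lower and Six3os1 at least 78.7-fold and 40.0-fold lower. In qNSC2 cells of pM, 1 cell held 69.7% of the Six3 counts, and the sum without it had 23.2 CPM. Emx2 missed the threshold with the replicate as a block (edgeR adjusted p = 0.0529) and without pL, which enters this fit only through the shared spread (0.0506). In this comparison 10% of all genes were called, against 4 of the 9 here, all lower, and the median difference over all genes was -0.76 (log2).

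Zic1 and Zic2 were each found in 1 of the 2 neuroblast sums, Zic1 in pM (86.0 CPM, all 195 counts in 1 cell) and Zic2 in pJ (38.6 CPM), against 0 in both qNSC2 sums. Within these letters Zic1 was at least 168-fold and Zic2 at least 63.3-fold higher in neuroblasts, with edgeR adjusted p = 0.076 each. vSVZ astrocytes also carried Six3 and Six3os1. Six3 had 27.3 and 18.7 CPM in vSVZ astrocytes of pJ and pM, and Six3os1 87.7 and 61.5 CPM. From vSVZ astrocyte to qNSC2 edgeR called 0.00991% of genes and 0 of 9, with 0 of 9 at an unadjusted p below 0.05 and 0 of 9 by DESeq2. From striatal to vSVZ astrocyte edgeR called 0.0149% of genes and 0 of 9, again with 0 of 9 at an unadjusted p below 0.05 and 0 of 9 by DESeq2.

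Across sorted cells of 6 arms (TiCY-IFN(A/G)R KO 2 d, TiCY 2 d, TiCY 21 d, naive IFN(A/G)R KO, naive TiCY and naive wild-type pE), the vSVZ had more Gsx2 and less Zic2 than the striatum of the same replicate. In vSVZ cells Gsx2 averaged 4.86 ± 3.58 CPM, against 0.663 ± 1.29 CPM in striatal cells (SD, n = 6), and was higher in 6 of 6 arms. The lowest, median and highest vSVZ values of Gsx2 were 2.175, 3.48 and 11.7 CPM, against 0, 0.13 and 3.26 CPM in the striatum. Zic2 averaged 6.59 ± 5.66 CPM in vSVZ cells, against 24.5 ± 27.3 CPM in striatal cells, and was lower in 5 of 6 arms. Six3 averaged 23.02 ± 10.5 CPM in vSVZ cells and 11.9 ± 4.75 CPM in striatal cells, higher in 5 of 6 arms. Six3os1 was higher in the vSVZ in 4 of the 5 arms in which it was counted.

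None of the 9 passed edgeR's test, in which 3.14% of all genes were called. Gsx2 alone of the 9 had an unadjusted p below 0.05, as did 3240 of 17464 genes. Gsx2 differed by 4.27 ± 1.26 (adjusted p = 0.090), Zic2 by -2.83 ± 1.29 (0.27), Six3 by 0.91 ± 0.46 (0.32) and Six3os1 by 0.77 ± 0.35 (0.28; log2, SE). DESeq2 called Gsx2 (4.51, adjusted p = 0.000394) and Zic2 (-2.94, adjusted p = 0.00914). EdgeR without a filter on low counts called the same 2 genes (adjusted p = 0.0147 and 0.0041). The count of all genes called by DESeq2 is given below, and that without the filter is not given.

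In striatal GLAST-sorted cells Zic2 was higher and Six3os1 lower in each ischemia sum than in each naive sum, and neither passed the test over all genes. Every ischemia sum came from TiCY mice given tamoxifen, but of the naive sums only that of pM was labelled so. Genotype and tamoxifen therefore cannot be fully told apart from ischemia here. Zic2 had 0.457, 7.06 and 7.58 CPM in naive mice (pJ, pL and pM), 27.2 and 33.0 CPM at 2 d (pI and pJ) and 73.6 CPM at 21 d (pH). Six3os1 had 56.2, 60.05 and 52.7 CPM in naive mice, 9.41 and 23.3 CPM at 2 d and 22.3 CPM at 21 d. For these 2 genes the ischemia sums did not overlap the naive sums, and the other 7 overlapped. The share of all genes without overlap was not counted, so this separation cannot be set against it. By edgeR, 0.177% of all genes were called. Six3 had 12.8, 19.9 and 15.97 CPM in naive mice, 15.9 and 3.35 CPM at 2 d and 9.89 CPM at 21 d.

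At a fixed depth, Zic2 was found in 0%, 9.09% and 4.72% of naive cells (pJ, pL and pM), in 16.4% and 33.3% at 2 d (pI and pJ) and in 38.2% at 21 d (pH; exact 95% interval 27.2% to 50.0%). The shares with Six3os1 were 34.5%, 39.4% and 41.5% in naive cells, 13.1% and 17.8% at 2 d and 10.5% at 21 d. The shares with Six3 were 10.3%, 30.3% and 29.2% in naive cells, 15.6% and 6.67% at 2 d and 9.21% at 21 d. No single cell held more than 12.97% of the Zic2 counts of an ischemia sum.

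**Figure D2:**
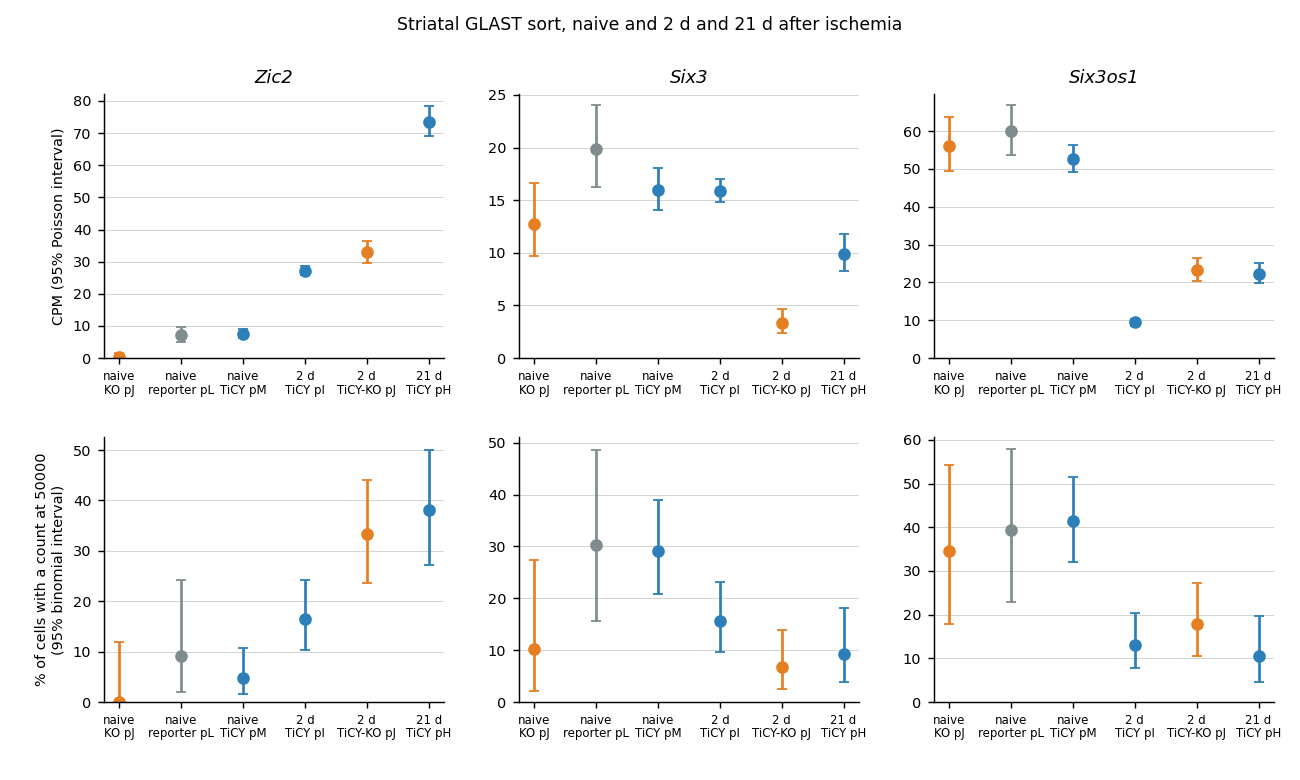
CPM and share of cells at 50000 counts for Zic2, Six3 and Six3os1 in striatal GLAST-sorted cells, by time after ischemia (naive, 2 d, 21 d), with 1 point per replicate and bars for exact 95% counting intervals. Zic2 runs between 0.457 and 7.58 CPM in naive mice and between 27.2 and 73.6 CPM after ischemia, and Six3os1 is lower after ischemia in every replicate.

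Ischemia sums averaged 44.6 ± 25.3 CPM of Zic2, against 5.03 ± 3.97 CPM in naive sums (SD, n = 3 each), a difference of 3.04 ± 0.89 (log2, SE; edgeR unadjusted p = 0.0060, adjusted p = 0.22). Six3os1 averaged 18.3 ± 7.74 CPM, against 56.3 ± 3.68 CPM, a difference of -1.73 ± 0.51 (log2, SE; unadjusted p = 0.0060, adjusted p = 0.22). Six3 averaged 9.72 ± 6.28 CPM, against 16.2 ± 3.56 CPM (-0.77 ± 0.80, edgeR adjusted p = 0.77). The genes that edgeR called were each higher after ischemia and held 0 of the 7 genes tested. Of these 7, 2 had an unadjusted p below 0.05, as did 1899 of 16402 genes. DESeq2 called 1, Zic2 (adjusted p = 0.0123), with Six3os1 at an adjusted p = 0.0562. The count of all genes called by DESeq2 is given below. The comparison was added after the data had been seen. Dlx1, a subpallial interneuron factor, rose by 10.16 ± 0.95 (log2, SE; edgeR adjusted p = 0.0018), with means of 92.9 CPM after ischemia and 0.0425 CPM in naive mice.

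The makeup of the striatal sort moved as well. Astrocyte markers summed to 5748, 20450 and 17150 CPM in pI, pJ and pH after ischemia, against 26190, 26380 and 30550 CPM in naive pJ, pL and pM. Neuroblast markers summed to 315, 518 and 346 CPM after ischemia, against 76.2, 104 and 79.1 CPM. Their part in the result was not tested. Within pJ, cells labelled striatal astrocyte gave 1 library after ischemia and 1 naive library. The first came from TiCY-IFN(A/G)R KO mice and the other from mice labelled IFN(A/G)R KO, so the mouse label changed together with ischemia. Zic2 had 34.6 CPM in pJ at 2 d (82 cells) and 0.457 CPM in naive pJ (35 cells), with astrocyte markers at 25940 and 26190 CPM. Six3os1 had 26.8 and 56.2 CPM and Six3 had 3.73 and 12.8 CPM in these groups. Naive pJ was the lowest of the naive libraries for Zic2. Naive striatal astrocytes of pL, pM and wild-type pE had 7.06, 7.58 and 5.19 CPM of Zic2. The cortical excitatory neuron list summed to 3.35, 28.1 and 0.230 CPM in pI, pJ and pH after ischemia, against 0, 0 and 0.435 CPM in naive pJ, pL and pM.

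In the vSVZ sort, Zic2 had 9.67 and 0.0350 CPM in naive pJ and pM, 13.7 and 5.90 CPM at 2 d (pI and pJ) and 10.2 CPM at 21 d (pH). These groups overlapped (0.97 ± 1.41, log2, SE; edgeR adjusted p = 0.82). EdgeR called 0% of all genes and 0 of the 9, with 2682 genes but 0 of the 9 at an unadjusted p below 0.05; DESeq2 called 987 genes and 0 of the 9. Whether the change with ischemia differed between regions was tested as an interaction, in which 0 of 17464 genes were called by edgeR. The change with ischemia of the vSVZ-over-striatum difference was 2.56 ± 2.58 for Zic2 (log2, SE; edgeR unadjusted p = 0.343, adjusted p = 0.999) and -7.07 ± 2.62 for Gsx2 (unadjusted p = 0.024, adjusted p = 0.999).

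Single cells seldom had Zic2 together with Six3 or Six3os1. Among 1259 sorted cells of pH to pM thinned to 50000 counts, 148 had Zic2 alone, 465 had Six3 or Six3os1 alone, 5 had both and 641 had neither. Six3 or Six3os1 was thus found in 3.27% of cells with Zic2, against 42.0% of cells without it. In striatal cells the shares were 1.15% and 39.0%, in vSVZ cells 9.52% and 44.0%, and in the cortex no cell had Six3 or Six3os1. Of 9 groups of 1 arm and region with at least 5 cells with Zic2, the share was lower in cells with Zic2 in 8 and was 0 in both kinds of cells in 1, the cortex. Without thinning the shares over all cells were 4.19% and 45.6% of 1427 cells, and at 20000 counts 2.40% and 33.6%. These cells come from few replicates, and no test was made over cells.

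**Figure D3:**
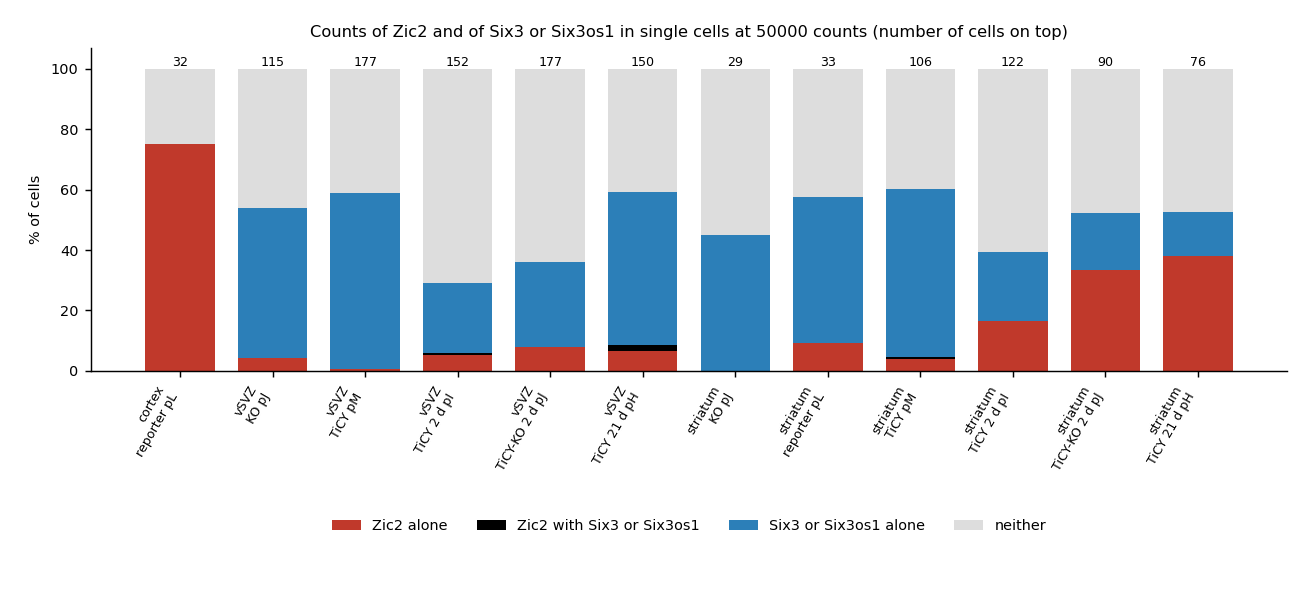
Share of sorted cells, thinned to 50000 counts, with Zic2 alone, with Six3 or Six3os1 alone, with both or with neither, for each region and replicate. Cells with both make up 5 of 1259, cortical cells have Zic2 and no Six3 or Six3os1, and the share with Zic2 alone in the striatum is larger after ischemia than in naive mice.

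Pax6 was detected more often in cells with Zic2 within each region, in 79.2% against 62.5% of cells without Zic2 in the cortex, 70.1% against 43.1% in the striatum and 85.7% against 41.8% in the vSVZ. It was more frequent in 8 of the 9 groups of 1 arm and region. Over all cells the shares were 75.8% and 42.4%. For the other pallial factors, the shares over all cells were 69.3% and 51.4% for Lhx2 and 52.9% and 35.6% for Emx2, but cells with Zic2 came more often from the cortex and from certain arms. Within the striatum they were 65.5% and 56.9% for Lhx2 and 49.4% and 43.1% for Emx2. Within groups, Lhx2 was more frequent in cells with Zic2 in 7 of 9, Otx1 in 6 of 9 and Emx2 in 5 of 9. Zic2 was found in 68.8% of the 32 cells with Zic1, against 10.7% of cells without it. Six3os1 was found in 54.1% of the 279 cells with Six3, against 19.5% of cells without it. Six3 and Six3os1 overlap on opposite strands, and the part of that overlap was not tested. Between 1 and 4 of the 9 genes were detected in the median cell of a group, and 6 at most.

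Striatal cells labelled neurogenic at 2 d (6 in pI and 27 in pJ) had no Six3 or Six3os1 count, with upper limits of 1.62 and 1.40 CPM for each gene. The other striatal cells were sorted cells with no type given in pI and cells labelled striatal astrocyte in pJ, so the references of the 2 letters differ in kind. These other striatal cells of pI and pJ had 17.3 and 3.73 CPM of Six3 and 9.48 and 26.8 CPM of Six3os1. Within pI and pJ, neurogenic cells were at least 13.1-fold and 3.29-fold lower in Six3 and at least 7.18-fold and 23.6-fold lower in Six3os1 than the other striatal cells. Against qNSC2 cells of the same letters they were at least 25.9-fold and 19.3-fold lower in Six3 and at least 65.5-fold and 70.0-fold lower in Six3os1. Zic2 was present at 78.7 and 35.5 CPM in neurogenic cells of pI and pJ, against 24.2 and 34.6 CPM in the other striatal cells (0.81 ± 1.53, log2, SE). It was found in 66.7% and 29.2% of neurogenic cells at fixed depth, and 1 cell held 55.3% of its counts in pI and 29.8% in pJ.

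Pax6 had 102 and 644 CPM in neurogenic cells of pI and pJ, against 51.6 and 126 CPM in the other striatal cells (1.84 ± 1.35, log2, SE; edgeR adjusted p = 0.97). It was higher in both replicates and was found in 66.7% and 87.5% of neurogenic cells. Emx2 had 157 and 39.3 CPM, against 18.0 and 69.8 CPM, and Lhx2 had 25.1 and 159.9 CPM, against 149 and 137 CPM. Emx2 had no common direction in the 2 replicates. For Lhx2, 1 of the other striatal cells of pI held 86.7% of the counts, and without that cell the sum had 19.9 CPM, below the neurogenic sum of pI. Gsx2 had 0 and 13.2 CPM, against 0.288 and 0 CPM.

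**Figure D4:**
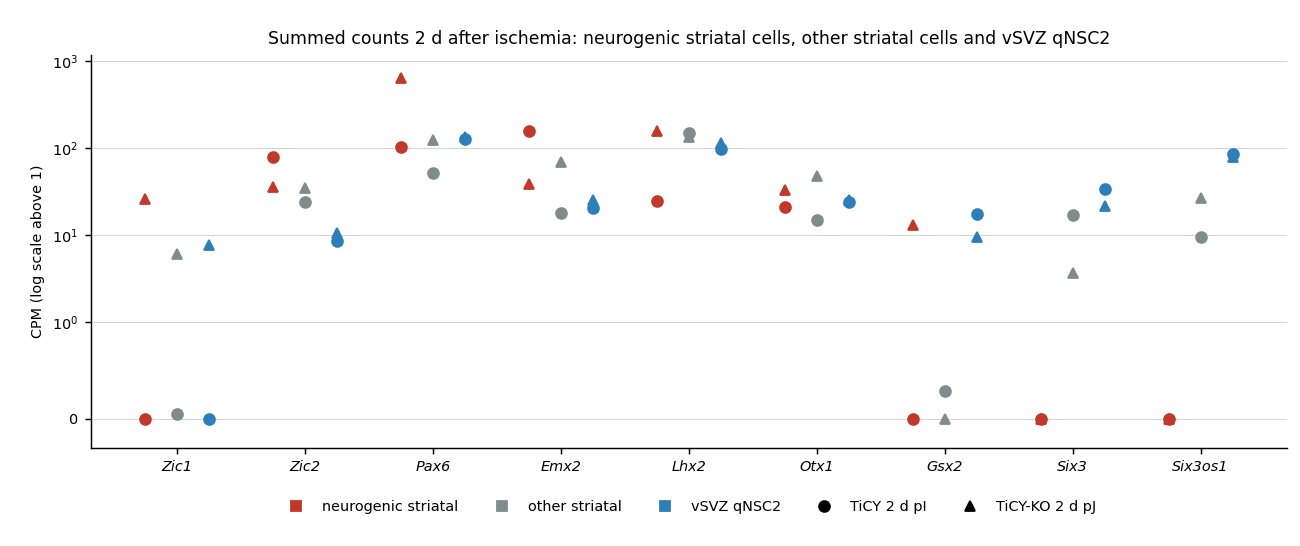
CPM of the 9 genes in striatal cells labelled neurogenic, in the other striatal cells (no type given in pI, labelled striatal astrocyte in pJ) and in qNSC2 cells, at 2 d after ischemia in pI and pJ, with 1 point per replicate. Neurogenic cells have 0 Six3 and Six3os1 in both replicates and Pax6 at 102 and 644 CPM.

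With 2 replicates, edgeR called 0% of genes and 0 of the 9 against the other striatal cells, with 796 genes and 2 of the 9 (Six3 and Six3os1) at an unadjusted p below 0.05. DESeq2 called 177 genes and the same 2 of the 9. Against qNSC2 cells edgeR called 0% of genes and 0 of the 9, with 278 genes and the same 2 of the 9 at an unadjusted p below 0.05, and DESeq2 called 27 genes and these 2. Neurogenic cells of pI and pJ had astrocyte markers at 4276 and 7104 CPM in sum and neuroblast markers at 34.7 and 1923 CPM, so the labelled cells of the 2 replicates differed from each other, and the part of this difference in the values was not tested.

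The patterning genes outside the 9 were read as 4 lists: 8 pallial, 11 subpallial, 6 septal and midline and 6 rostral genes. In oligodendrocytes against qNSC1 cells, 1 of 5 pallial genes tested (Nr2f1) and 1 of 4 septal genes (Zic5) fell, as did Meis2 of the subpallial list and Otx2 and Sox1 of the rostral list, and no gene of the 4 lists rose. In naive neuroblasts against qNSC2 cells, Dlx1 rose by 10.17 ± 1.00 (log2, SE; edgeR adjusted p = 3e-06), with means of 1360 CPM in neuroblasts and 1.13 CPM in qNSC2 cells, and Nkx6-2 fell to 0 CPM in neuroblasts, against 39.5 CPM in qNSC2 cells. In cortical against striatal astrocytes, 0 genes of the 4 lists were called by edgeR. The median difference of the 4 septal genes tested was 5.09, against -0.22 over all genes (log2), and Zic4 and Zic5 had 13.2 and 24.5 CPM in the cortical sum.

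Over 22 sums of at least 10 cells, Six3 and Six3os1 had the most alike levels among the 9 genes (Pearson r of log2(CPM + 5) = 0.87), followed by Emx2 and Lhx2 (0.78) and Pax6 and Lhx2 (0.65). Zic1 ran against Six3 (-0.54), and Zic2 against Six3 (-0.38). Among 10955 genes, those most like Lhx2 were Nectin3 (0.92), Tnfrsf19 (0.91) and Prdm16 (0.91), and those most like Six3os1 were Crym (0.91), Pdzrn3 (0.89) and Cfap74 (0.88). Emx2 was close to Igdcc4 and Mfge8 (0.88 each), Six3 most like Katnal2 (0.85), Gsx2 most like Cyb5d1 (0.82), Zic1 most like Zfp384 (0.84), Pax6 most like Pcyt1a (0.80), Otx1 most like Fastk (0.77) and Zic2 most like mt-Cytb (0.73). The sums share replicates and differ in depth, and Six3 and Six3os1 overlap on the genome, so these r are a description.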

How the data were processed

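The authors deposited raw read counts per gene and cell from Smart-seq3 libraries. Per the submitters' processing notes, reads were aligned with STAR and counted with featureCounts on GRCm38 (mm10); versions and strand setting: not given in the sources used here. Groups came from GEO's labels and sorts and letters from the cell names. Of 2584 cells in the table, 603 without a label were not used, and 103 labelled cells had no counts there. Symbols and coordinates came from GENCODE M21.

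The members and gene lists were chosen with earlier results of these data known. Counts were summed per type or sort and letter (at least 3 cells) and fitted with edgeR 4.0.16 (R 4.3.3; TMM, filterByExpr, quasi-likelihood F test, Benjamini-Hochberg over all genes tested, threshold 0.05), after a check on simulated counts. The region fit had the arm as a block. Genes of the patterning lists were named where called, and every one of the 9 was named; some other genes are not reported here. Alternatives were DESeq2 1.42.0, no filter on low counts, a minimum of 5 cells, letter sets, a replicate block and leaving out each replicate. Levels without the cell with the most counts, shares within each arm and region, and bounds within each letter were added after the data had been seen. Overlap between groups of sums was read for the 9 genes only, with no share over all genes. Whether a letter marks the same mice in every sort is not stated, and pJ covers both naive mice and mice after ischemia. In the sort fit, same-letter sums deviated together in 18 of 18 pairs (correlation above 0.1), and in the region fit in 6 of 6. By this measure alone, letters pair in these fits. In the wild-type fit 37 of 38 pairs deviated together, in the naive fit 5 of 30 and in the neurogenic fit 10 of 12.

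Shares of cells used cells thinned to 50000 counts, which left out 214 cells, or to 20000, which left out 81. Plots used matplotlib 3.10.9. Promoters were RefSeq's (GRCm38.p6), with no entry for Zic2 or Otx1.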

Additional observations from a re-analysis of the deposited data

Results flagged for a closer look

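In 6 of 42 groups of 4 to 10 sums, 1 sum stood far from the others by Dixon's ratio at the 95% level, where chance gives about 1 group in 20. Emx2 in wild-type neuroblasts was 248.5 CPM in pD, against 1.54 to 9.46 CPM in the other letters; 1 of the 7 pD cells held 61.6% of these counts. In wild-type qNSC2 cells, pD had 5.46 CPM of Zic2, all from 1 cell, against 0 to 0.172 CPM in the other letters. The same qNSC2 sum of pD had 1.74 CPM of Gsx2, while the other letters had 0 CPM. Among striatal sorts of the 6 arms, TiCY-IFN(A/G)R KO mice at 2 d (pJ) had 10.8 CPM of Zic1, against 0 to 2.40 CPM in the other arms. That arm also had 3.26 CPM of Gsx2 in the striatum, against 0 to 0.460 CPM. Among vSVZ sorts, naive IFN(A/G)R KO mice (pJ) had 11.7 CPM of Gsx2, against 2.17 to 5.53 CPM in the other arms.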

How the results depend on the processing

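Of 143 fitted differences of the 9 genes, 14 were called. Over 1304 alternative values, 39 of the 143 changed sign at least once, none of them called ones; 9 called differences lost the call and 26 others gained one under some alternative. DESeq2 moved the number of the 9 genes called to 8 for oligodendrocytes against qNSC1 cells, 8 for the OLIGO and 4 for the NB sort against the NSC sort, 2 for vSVZ against striatal sorts, 2 for neurogenic against other striatal cells, 2 for neurogenic cells against qNSC2 cells, 1 for bulb cells and 1 for striatal ischemia. Without a filter on low counts it was 2 for vSVZ against striatal sorts and 1 each for cortical astrocytes, for neurogenic cells against either group and for striatal ischemia. With the letters pC, pD and pF alone it was 3 for oligodendrocytes, and with pA, pB and pE alone 1 for neuroblasts against TAP cells. With the replicate block it was 2 for the NB sort, 6 for oligodendrocytes and 3 for naive neuroblasts (Emx2 lost), with the count as before in every other comparison given a block. Leaving out 1 replicate gave 3 to 7 calls for oligodendrocytes, 0 to 3 for the OLIGO sort, 0 to 1 for the NB sort, 3 to 4 for cortical astrocytes and 0 to 1 for vSVZ against striatal astrocytes (Zic2, without pJ). It moved Pax6 in the NB sort between -0.31 and 0.63, and Zic2 in the vSVZ after ischemia between -0.05 and 8.18 (log2). The share of all genes called under an alternative is given only where stated, so these counts do not measure how the 9 stand out. The cause was not tested.

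Counts over all genes moved most with DESeq2: 320, 1033, 177 and 365 between successive wild-type stages (edgeR 18, 23, 0 and 13), 169 against 5 for bulb cells, 115 against 2 for qNSC2 cells against vSVZ astrocytes, 2376 against 549 for vSVZ against striatal sorts, 578 against 29 for striatal and 987 against 0 for vSVZ ischemia. With the replicate block, 60, 295, 17 and 17 genes were called between successive wild-type stages and 2755 for the NB sort. The vSVZ against striatal count was 0 without the arm as a block, 195 over naive arms and 0 over ischemia arms, and 0 to 581 with 1 replicate left out. No block could be fitted for bulb cells (pF alone), and no replicate could be left out for neurogenic cells (2 letters). Depth limits the sums of under 10 cells, in which 1 cell often held most counts of Zic1, Zic2, Gsx2 or Emx2.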
